A study of Arabidopsis thaliana with 12 samples.

Results

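The report describes 39 nuclear genes of Arabidopsis thaliana that encode light-harvesting proteins, photosystem subunits and 2 mobile or membrane-bound electron carriers between the photosystems. They were taken as the rows of the count table whose locus identifier is on a fixed list, and 39 of 39 were found among 27416 gene models. By role they comprise 9 LHCB genes of the major antenna of photosystem II, 5 LHCB genes of its minor antenna, 6 LHCA genes of the photosystem I antenna, 9 PSA genes and 7 PSB genes of the photosystem cores, and 3 carrier genes (PETC, PETE1 and PETE2). Antenna here means LHCB and LHCA together (20 genes) and core means PSA and PSB together (16 genes). Photosystem I is LHCA plus PSA (15 genes) and photosystem II is LHCB plus PSB (21 genes).

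Messenger RNA was sequenced from rosettes of 2-week-old plants of the Wassilewskija (Ws-0) accession, grown on MS medium with 16 h of light per day at 100 µmol of photons per square metre and second and 22/18 °C, as 3 biological replicates for each of 4 groups. These comprised wild type (WT), the lsd1-1 mutant, plants with LSD1-GFP under the 35S promoter, and plants with LSD1-GR under the same promoter that received dexamethasone (LSD1-GR+DEX). LSD1 is a zinc-finger protein known for restraining the spread of cell death, and GR is the hormone-binding part of the glucocorticoid receptor, which is used to make a fused protein respond to dexamethasone. The 35S promoter is active in most plant cells, so neither transgene follows the expression pattern of LSD1, and whether each group stems from 1 line is not stated. Nylon mesh was used for LSD1-GR seedlings alone, which were transferred on it to plates containing 30 µM dexamethasone. No untreated LSD1-GR group and no WT group on dexamethasone was analysed here, so transgene, agent and transfer cannot be told apart in that group. How long they stayed there, and the hour of harvest of any group, was not given in the sources used here.

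In the chloroplast, photosystem II uses light to take electrons from water and photosystem I uses light to pass them on to ferredoxin. The cytochrome b6f complex and the small copper protein plastocyanin carry electrons from the first to the second. LHCB and LHCA proteins bind most of the chlorophyll and funnel excitation to the reaction centres, whose innermost proteins are encoded in the chloroplast, while the nuclear PSA and PSB genes encode outer subunits. These nuclear genes are among the most highly expressed in green leaves and respond to light, to the circadian clock and to signals from the plastid.

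Libraries held 9781360 to 11503432 counts, and all 39 members were among the 19487 genes that passed the filter on low counts. LSD1 itself stood at 22.2 to 25.7 CPM (counts scaled to the depth of the library) in WT, at no more than 0.186 in lsd1-1, at 2159 to 2703 in LSD1-GFP and at 147 to 218 in LSD1-GR+DEX. The counts of both transgenic groups include reads of the transgene. The leaf mesophyll markers RBCS1A and CA1 were abundant in every library (summed level 13866 to 28474 CPM). The summed level of 8 root markers was 997 to 1283 CPM in WT, 1054 to 1242 in lsd1-1, 1274 to 1931 in LSD1-GFP and 2494 to 2767 in LSD1-GR+DEX, and none was at 0 in any group. Most of each sum was 1 gene, PYK10, at 1226, 1245 and 948 CPM in WT and 2389, 2722 and 2441 in LSD1-GR+DEX. Guard cell and vascular lists held no called gene in any comparison. Of 3 epidermis genes, 1 (FDH) was lower in lsd1-1 and in LSD1-GR+DEX than in WT. Levels are CPM scaled by TMM factors, given as mean ± SD over 3 libraries. Differences are log2 differences with their standard error (SE), tested by edgeR's quasi-likelihood test with Benjamini-Hochberg adjustment over all 19487 genes and called at an adjusted p below 0.05. Reads counted per gene do not separate fewer cells of a type from less RNA per cell.

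Within WT, members were compared by CPM per kilobase of transcript. The highest was LHCB1.3 (AT1G29930, also CAB1), a copy of the main trimeric antenna protein, at 4246 ± 755 CPM per kb (n = 3). It was followed by PSBR (3015 ± 278), a small subunit at the oxygen-evolving side of photosystem II, and by PSBO1 (2331 ± 282), the manganese-stabilising protein. The spreads of PSBR and PSBO1 did not touch that of LHCB1.3. At the other end stood LHCB4.3, a rare copy of the minor antenna protein CP29, at 27.1 ± 3.43 CPM per kb. LHCA6 (67.6 ± 8.89) and LHCA5 (169 ± 12.4) came next. Their proteins are known to link photosystem I to the NADH dehydrogenase-like complex, unlike the abundant LHCA1 to LHCA4. LHCB1.4 (183 ± 48.6) and PETE1 (215 ± 18.6), the lesser plastocyanin copy, followed, and the spread of LHCB1.4 covered both LHCA5 and PETE1. Together the members took 5.26% ± 0.33 of all counts in WT and 5.21% ± 0.40 in lsd1-1, while LSD1-GFP had 7.37% ± 0.27 and LSD1-GR+DEX 4.21% ± 0.12.

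**Figure D1:**
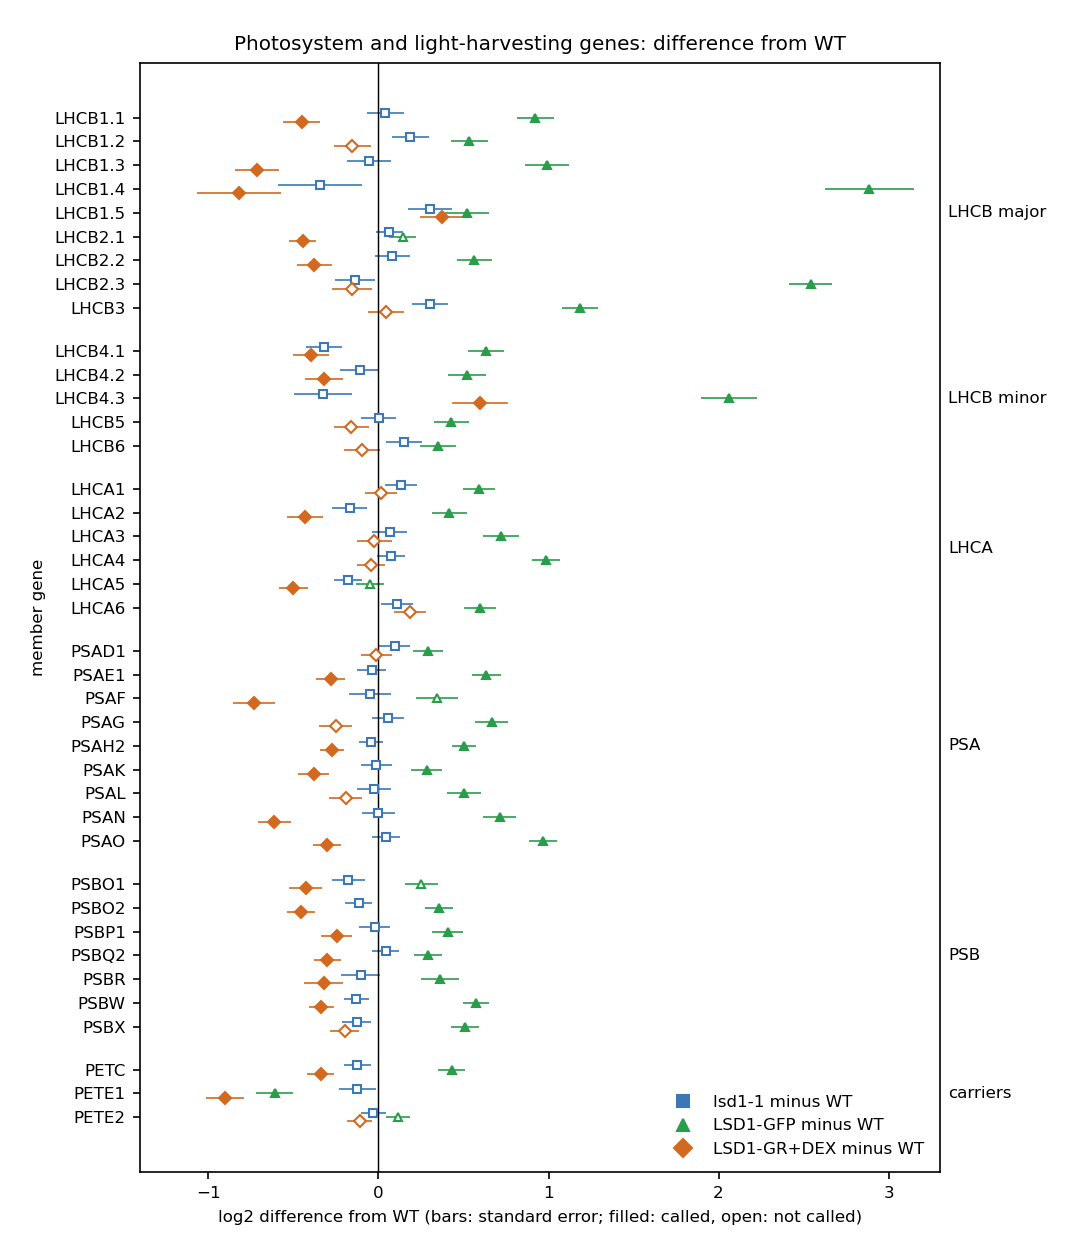
Log2 difference from WT (horizontal axis) of each of the 39 members (vertical axis, grouped by role) in lsd1-1 (squares), LSD1-GFP (triangles) and LSD1-GR+DEX (diamonds), with bars of 1 standard error; filled symbols are called genes. In LSD1-GFP 33 members lie to the right as called genes, with LHCB1.4, LHCB2.3 and LHCB4.3 beyond 2, and in LSD1-GR+DEX 23 lie to the left.

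The first comparison asked whether loss of LSD1 alone went with other levels of these genes. In lsd1-1 none of the 39 members was called by edgeR in either direction, against 5.19% of all genes called higher and 3.1% called lower. Their median log2 difference was -0.03 (all genes: -0.01), and the members ranged from -0.34 for LHCB1.4 to 0.30 for LHCB3. At an unadjusted p under 0.05 there were 4 members, and DESeq2 called 1, LHCB4.1, lower. The share of all genes is not given for either, so these counts cannot be set against it. Antenna genes had a median of 0.05 and core genes of -0.03.

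Same-numbered replicates of WT and lsd1-1 deviated together. With the replicate number as a block, 3 antenna genes passed edgeR's test, against 8.98% of all genes called higher and 5.84% called lower. LHCB4.1, the main CP29 gene, was at 1155, 1174 and 1483 CPM in WT and at 969, 968 and 1120.3 in lsd1-1. All 3 mutant libraries were below all 3 WT libraries (log2 -0.31, SE 0.07, adjusted p = 0.0051 with the block and adjusted p = 0.0832 without it). LHCB3, whose protein sits in the outer antenna trimers, was at 1047, 1209 and 1329 CPM in WT and 1439.6, 1357 and 1629.5 in lsd1-1, all 3 mutant libraries being higher (log2 0.31, SE 0.06, adjusted p = 0.00303 with the block and adjusted p = 0.1 without it). LHCB1.5 overlapped between the groups, with 1172, 1450.1 and 1680.5 CPM in WT and 1572, 1716 and 2015 in lsd1-1 (log2 0.31, SE 0.08, adjusted p = 0.0107 with the block and 0.196 without it). LHCB3, and LHCB2.3 in the next comparison, were chosen for values in every library after their values were seen.

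In LSD1-GFP, 33 of 39 members were higher than in WT and 1 was lower, where 15.5% of all genes were called higher and 13.6% lower. The median log2 difference was 0.52 over the members and 0.00 over all genes. Higher calls comprised 8 of 9 major LHCB genes (median 0.92), 5 of 5 minor LHCB genes (0.52), 5 of 6 LHCA genes (0.59), 8 of 9 PSA genes (0.50), 6 of 7 PSB genes (0.36) and 1 of 3 carriers. Under scaling by total counts instead of TMM, which shifted the median of all genes by -0.16, 28 members stayed higher and LHCB6, PSAD1, PSAK, PSBQ2 and PSBR did not pass. The mesophyll markers were higher in the same group, RBCS1A by log2 0.48 (SE 0.11, adjusted p = 0.00613) and CA1 by log2 0.93 (SE 0.13, adjusted p = 0.000155), and their part in the members' results was not tested.

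LHCB1.4 (AT2G34430; chr2:14524607-14525918, plus strand, RefSeq TAIR10.1), a little-used LHCB1 copy in WT, showed the largest difference among the members. Its level was 182, 229 and 308 CPM in the 3 WT libraries and 1585, 1658 and 2080.5 in the 3 LSD1-GFP libraries. The groups were far apart, and the gene rose 7.4-fold (log2 2.89, SE 0.26, adjusted p = 2.18e-05). LHCB1.5 (AT2G34420; chr2:14522524-14523568, minus strand) starts 1038 bases away on the opposite strand and encodes the same kind of protein. It was at 1172, 1450.1 and 1680.5 CPM in WT and 1904, 1947 and 2325 in LSD1-GFP, a rise of 1.44-fold with no overlap (log2 0.52, SE 0.13, adjusted p = 0.00807).

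A similar contrast stood among the 3 LHCB2 copies, whose protein is the other main partner in the antenna trimers. LHCB2.3 (AT3G27690; chr3:10255906-10257489, plus strand) was at 432, 511 and 545 CPM in WT and 2687, 3005 and 2968 in LSD1-GFP. Every LSD1-GFP library was above every WT library, a rise of 5.82-fold (log2 2.54, SE 0.12, adjusted p = 2.06e-08). LHCB2.1 (AT2G05100; chr2:1822990-1824480, minus strand) was at 813, 879.9 and 921 CPM in WT and 939, 928 and 1020.2 in LSD1-GFP. The groups lay side by side without overlap but the difference did not pass (log2 0.14, SE 0.08, adjusted p = 0.193). LHCB2.2 was 1.48-fold higher (log2 0.56, SE 0.10, adjusted p = 0.000952).

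For these 2 pairs of copies, which code for like proteins but differed in size of change, the 250 bases before the annotated gene start are shown, 5′ to 3′ on the gene's strand, as the Columbia reference (RefSeq, TAIR10.1) has them; the plants were Ws-0. The windows lie at chr2:14524357-14524606 (plus strand), chr2:14523569-14523818 (minus), chr2:1824481-1824730 (minus) and chr3:10255656-10255905 (plus). Capitals mark matches, on either strand, to the G-box (CACGTG), the I-box (GATAAG) and the CCAATC motif.
LHCB1.4: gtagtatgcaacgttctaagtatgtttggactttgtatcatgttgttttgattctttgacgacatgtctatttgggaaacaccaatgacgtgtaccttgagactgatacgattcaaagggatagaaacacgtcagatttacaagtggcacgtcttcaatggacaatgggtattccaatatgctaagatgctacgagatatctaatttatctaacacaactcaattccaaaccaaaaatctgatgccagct
LHCB1.5: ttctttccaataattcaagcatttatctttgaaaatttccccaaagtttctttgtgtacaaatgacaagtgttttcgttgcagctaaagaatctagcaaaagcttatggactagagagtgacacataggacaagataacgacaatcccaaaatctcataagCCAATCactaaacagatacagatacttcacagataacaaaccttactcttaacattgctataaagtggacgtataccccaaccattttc
LHCB2.1: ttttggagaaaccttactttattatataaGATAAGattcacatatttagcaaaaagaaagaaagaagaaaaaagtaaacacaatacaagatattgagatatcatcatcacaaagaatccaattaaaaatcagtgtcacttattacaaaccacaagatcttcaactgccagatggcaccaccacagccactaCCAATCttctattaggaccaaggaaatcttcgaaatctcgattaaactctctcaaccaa
LHCB2.3: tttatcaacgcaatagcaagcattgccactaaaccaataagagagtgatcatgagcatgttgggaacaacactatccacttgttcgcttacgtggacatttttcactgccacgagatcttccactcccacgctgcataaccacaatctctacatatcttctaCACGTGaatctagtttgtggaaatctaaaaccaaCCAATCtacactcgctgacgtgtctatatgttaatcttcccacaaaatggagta
The window of LHCB2.3 holds a G-box and a CCAATC motif, that of LHCB2.1 an I-box and a CCAATC motif, that of LHCB1.5 a CCAATC motif, and that of LHCB1.4 none of the 3. The shorter core ACGTG, which the G-box contains, is not marked. Its matches on either strand number 3 in LHCB1.4, 4 in LHCB2.3 and 0 in LHCB1.5 and LHCB2.1, and 23.1% of all windows hold it. The G-box of LHCB2.3 reads the same on both strands, so that 1 site gives 2 of its 4 matches. Of other members higher in LSD1-GFP, LHCB4.3 (log2 2.06) and LHCB3 (1.19) have 0 and LHCB1.3 (0.99) has 3. PETE2, not called there, also has 3. These genes were chosen after their differences were seen, and a link between matches and differences was not tested.

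These copies can exchange reads where they are identical. Of all stretches of 50 bases in a transcript, on both strands, 13.7% of LHCB1.4 and 17.3% of LHCB1.5 recur in another transcript, in nearly all cases in each other. LHCB2.1 (22.7%) and LHCB2.2 (28.2%) share stretches with each other. LHCB2.3 shares none with them but 25.5% with AT3G27700, a gene that overlaps its end, and whose own level was 33.8 CPM in WT and 31.2 in LSD1-GFP. Across LHCB1.1 to LHCB1.5 the share ran from 10.6% to 22%. How reads that match several genes were counted, and with which strand setting, was not given in the sources used here, so the split between near-identical copies and overlapping genes is uncertain. Summed over its 5 copies LHCB1 rose 1.92-fold (log2 0.94, SE 0.12, adjusted p = 8.06e-05), and LHCB2 over its 3 copies rose 2.22-fold (log2 1.15, SE 0.10, adjusted p = 2.69e-06).

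Of the remaining major antenna genes, LHCB1.3 rose 1.99-fold (log2 0.99, SE 0.13), LHCB1.1 1.9-fold and LHCB1.2 1.45-fold. Per kb LHCB1.3 gained the most of the 39 members, from 4246 ± 755 to 8429.6 ± 671 CPM per kb (n = 3 per group). It was picked out after its values were seen. LHCB3 was higher as well, by log2 1.19; it shares 11% of its stretches with the overlapping gene AT5G54280, which had log2 0.73 (adjusted p = 0.00112).

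Among the minor antenna genes, whose monomeric proteins bridge the trimers and the photosystem II core, LHCB4.3 (AT2G40100; chr2:16745628-16747424, plus strand) stood out in WT by its low level. It was at 34.5, 32 and 40.8 CPM in WT and at 138, 159 and 152 in LSD1-GFP. The lowest LSD1-GFP library was above the highest WT library, and the gene rose 4.17-fold (log2 2.06, SE 0.17, adjusted p = 4.92e-06). LHCB4.1, with 1887, 1878 and 2137 CPM in LSD1-GFP, rose 1.55-fold (log2 0.63, SE 0.11, adjusted p = 0.000561), again without overlap. LHCB4.2 rose 1.43-fold. LHCB5, the gene of CP26, rose 1.35-fold. LHCB6, the gene of CP24, had the smallest difference of the 5. It was at 904, 1027 and 1162 CPM in WT and 1248, 1279 and 1416 in LSD1-GFP, a rise of 1.27-fold without overlap (log2 0.35, SE 0.10, adjusted p = 0.0204). That call was lost without WT replicate 1 (log2 0.25, adjusted p = 0.12), WT replicate 2 (0.35, adjusted p = 0.0559) or LSD1-GFP replicate 3 (0.29, adjusted p = 0.0746).

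On the photosystem I antenna, LHCA4, whose protein pairs with that of LHCA1 and holds the far-red absorbing chlorophylls, was at 1816, 2108 and 1977 CPM in WT. It reached 3768, 3975 and 3941 CPM in LSD1-GFP. No library overlapped, and the rise was 1.98-fold (log2 0.99, SE 0.08, adjusted p = 2.33e-06). LHCA3 rose 1.65-fold, LHCA1 1.51-fold and LHCA2 1.34-fold. The 2 rare genes behaved unequally. LHCA6 was at 69.2, 76.9 and 89.7 CPM in WT and 113, 121 and 122 in LSD1-GFP, a rise of 1.51-fold without overlap (log2 0.60, SE 0.09, adjusted p = 0.000356). LHCA5 was at 156, 144 and 167 CPM in WT and 144, 155 and 152 in LSD1-GFP, overlapping, with no call (log2 -0.05, SE 0.08, adjusted p = 0.7).

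In the photosystem I core, PSAO changed most. Its protein lies, with those of PSAH and PSAL, on the side of photosystem I where mobile antenna trimers dock. PSAO was at 642, 683 and 651 CPM in WT and 1234, 1417 and 1212 in LSD1-GFP. The groups were far apart, and PSAO rose 1.96-fold (log2 0.97, SE 0.08, adjusted p = 3.69e-06). PSAN, a lumenal subunit, rose 1.64-fold, PSAG 1.59-fold, PSAE1 1.55-fold, PSAL 1.42-fold and PSAH2 1.42-fold. PSAD1, whose protein docks ferredoxin, was at 776, 861 and 925 CPM in WT and 988, 996 and 1148 in LSD1-GFP (log2 0.29, SE 0.09, adjusted p = 0.0258). PSAK, an outer membrane-spanning subunit, was at 1126, 1124 and 1011 CPM in WT and 1331, 1418 and 1224 in LSD1-GFP (log2 0.28, SE 0.09, adjusted p = 0.0292). Neither overlapped between the groups, but both calls were lost without some single libraries. PSAD1 was lost without WT replicate 1 (log2 0.21, adjusted p = 0.148), WT replicate 2 (0.30, adjusted p = 0.0604) or LSD1-GFP replicate 3 (0.22, adjusted p = 0.11). PSAK was lost without any of the 3 WT libraries or without LSD1-GFP replicate 1 or 2 (log2 0.23 to 0.31, adjusted p = 0.0509 to 0.121). PSAF, the docking subunit for plastocyanin, was at 1128, 1170.5 and 1375 CPM in WT and 1554, 1338 and 1771 in LSD1-GFP; the groups overlapped and it was not called (log2 0.34, SE 0.12, adjusted p = 0.0522).

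In the photosystem II core, differences were smaller. PSBW, a small subunit that stabilises the complex with its antenna, was at 1239.7, 1293 and 1196 CPM in WT and 1846, 1898 and 1805 in LSD1-GFP, without overlap. It rose 1.49-fold (log2 0.57, SE 0.07, adjusted p = 8.02e-05). PSBX, another small membrane subunit, rose 1.42-fold from 880.5, 890.1 and 1005 to 1248, 1318 and 1380.3 CPM (log2 0.51, SE 0.08, adjusted p = 0.000506). Of the extrinsic proteins that shield the water-splitting cluster, PSBP1 rose 1.33-fold and PSBQ2 1.22-fold, and PSBR rose 1.29-fold. PSBO2, the lesser manganese-stabilising copy, went from 1187, 1232 and 1389 CPM in WT to 1574, 1619 and 1681 in LSD1-GFP (log2 0.36, SE 0.08, adjusted p = 0.00416). PSBO1, the main copy, went from 3216, 3327 and 4002 to 4065, 4044 and 4442 CPM without overlap but did not pass (log2 0.25, SE 0.10, adjusted p = 0.0647). Blocking by replicate number, which pairs WT with LSD1-GFP, added PSAF and PSBO1, for 35 higher and 1 lower, where the blocked fit called 20% of all genes higher and 17.5% lower.

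The carriers did not move as a group. PETC, the Rieske iron-sulphur protein of the cytochrome b6f complex, was at 1125, 1124 and 1267 CPM in WT and 1566, 1599 and 1576 in LSD1-GFP, and rose 1.35-fold without overlap (log2 0.43, SE 0.08, adjusted p = 0.00102). PETE1 (AT1G76100; chr1:28553883-28554930, minus strand) was the only member called lower. It was at 171, 165 and 194 CPM in WT and 106, 105 and 137 in LSD1-GFP, with every LSD1-GFP library below every WT library (log2 -0.61, SE 0.11, adjusted p = 0.000943). PETE2 (AT1G20340), the main plastocyanin copy, was at 2328, 2486 and 2432 CPM in WT and 2512, 2704 and 2637 in LSD1-GFP, narrowly apart and not called (log2 0.12, SE 0.07, adjusted p = 0.252). Their sum was 1.05-fold that of WT and was not called (log2 0.08, SE 0.07, adjusted p = 0.465).

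**Figure D2:**
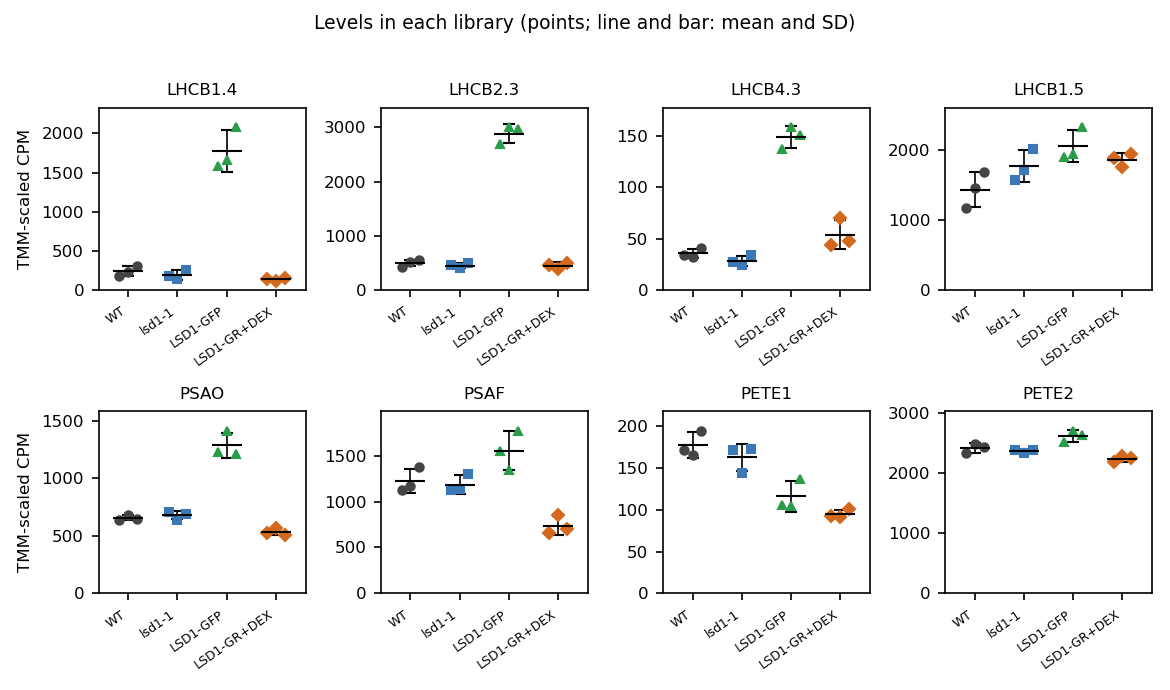
TMM-scaled CPM (vertical axis, from 0) of 8 members in each of 12 libraries by group (horizontal axis); points are libraries, the line is the mean and the bar the SD of 3 libraries. LHCB1.4, LHCB2.3 and LHCB4.3 are highest in LSD1-GFP, PSAF is lowest in LSD1-GR+DEX, and PETE1 is lower in both transgenic groups than in WT.

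Antenna and core were compared by the ratio of their summed CPM in each library. In WT this ratio was 1.11, 1.19 and 1.31 (mean 1.2 ± 0.10, n = 3). In LSD1-GFP it was 1.55, 1.54 and 1.70 (1.60 ± 0.09, n = 3), above every WT library and 1.33-fold the WT mean. The summed antenna level was 1.80-fold that of WT and the summed core level 1.36-fold. By same-numbered replicate the log2 ratio was higher by 0.48, 0.37 and 0.38. The log2 ratio was 0.41 above WT with the LHCB1 and LHCB2 copies and 0.24 without them. In lsd1-1 the ratio was 1.29 ± 0.06 and overlapped WT, while the same-numbered log2 differences were 0.15, 0.09 and 0.05, all above 0. In LSD1-GR+DEX it was 1.28 ± 0.08 and overlapped WT. That log2 difference was 0.09 with all genes, 0.21 without LHCB1 and LHCB2, 0.04 without WT replicate 1 and 0.15 without WT replicate 3. No p is given for these ratios, since they sum over chosen genes.

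Photosystem I and photosystem II did not separate as clearly. Their ratio was 0.477, 0.475 and 0.440 in WT (0.464 ± 0.021) and 0.441, 0.434 and 0.423 in LSD1-GFP (0.433 ± 0.009), which overlapped. By same-numbered replicate, however, the log2 ratio was lower in every pair, by -0.11, -0.13 and -0.06. It was 0.471 ± 0.015 in lsd1-1 and 0.485 ± 0.013 in LSD1-GR+DEX, both overlapping WT. The log2 difference of LSD1-GFP from WT was -0.10 with all genes, 0.14 without LHCB1 and LHCB2, and -0.27 when log2 values were averaged, so its sign turned when LHCB1 and LHCB2 were left out. Within the cores, PSA to PSB was 0.727 ± 0.005 in WT, 0.782 ± 0.015 in lsd1-1 and 0.820 ± 0.010 in LSD1-GFP, with both of the latter above every WT library, while LSD1-GR+DEX stood at 0.727 ± 0.007. Within the antennas, LHCA to LHCB was 0.299 ± 0.017 in WT, below every WT library in LSD1-GFP (0.264 ± 0.007) and above every WT library in LSD1-GR+DEX (0.338 ± 0.008). On photosystem I alone, LHCA to PSA was 0.657 ± 0.031 in WT, and it was above every WT library both in LSD1-GFP (0.741 ± 0.025) and in LSD1-GR+DEX (0.770 ± 0.039, 1.17-fold).

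**Figure D3:**
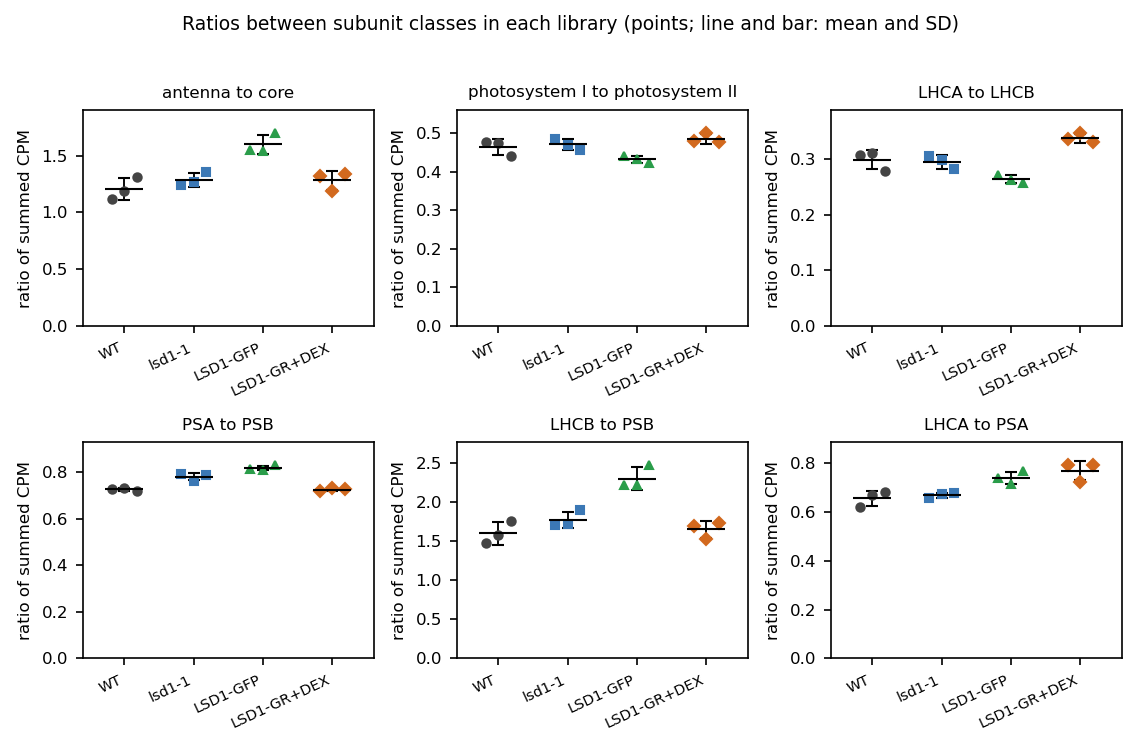
Ratios of summed CPM (vertical axes, from 0) between subunit classes in each library of the 4 groups (horizontal axes); points are libraries, the line is the mean and the bar the SD of 3 libraries. The antenna to core ratio is 1.60 in LSD1-GFP against 1.2 in WT, and the photosystem I to photosystem II ratio overlaps WT in all 3 other groups.

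In LSD1-GR+DEX, 23 of 39 members were lower than in WT and 2 were higher, where 16.7% of all genes were called lower and 19.3% higher. The median log2 difference was -0.30 over the members and 0.01 over all genes. Lower calls comprised 5 of 9 major LHCB genes, 2 of 5 minor LHCB genes, 2 of 6 LHCA genes, 6 of 9 PSA genes, 6 of 7 PSB genes and 2 of 3 carriers. Core genes thus gave 12 lower calls of 16 (median -0.30), and antenna genes 9 lower and 2 higher of 20 (median -0.16). By photosystem, 8 of 15 genes of photosystem I and 13 of 21 of photosystem II were lower. Against a fold of at least 1.2, 7 members remained lower and 0 higher, with no share of all genes given for that test. Of the root markers that passed the filter, 5 of 6 were higher in the same group (PYK10 by log2 1.14, SE 0.16, adjusted p = 9.67e-05), and their part in the members' results was not tested. LSD1-GR+DEX replicate 2 stood apart in 3 of those 5. TIP2;3 was at 45.5, 11.8 and 45.5 CPM in LSD1-GR+DEX against 16.1, 11.6 and 17.5 in WT, and EXPA7 and COBL9 were likewise within the WT range in that library and above it in the other two, while PYK10 was highest in it. Without that library 21 members were called lower and 0 higher. The share of all genes called in that smaller fit is not given here. Of the mesophyll markers, RBCS1A was lower as well (log2 -0.34, SE 0.11, adjusted p = 0.0304), and CA1 was not called (log2 0.35, SE 0.13, adjusted p = 0.0517).

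Among core genes, PSAF fell most. It was at 658, 857 and 697 CPM in LSD1-GR+DEX against 1128, 1170.5 and 1375 in WT, with no overlap, at 0.602 times the WT level (log2 -0.73, SE 0.13, adjusted p = 0.000505). PSAN followed with log2 -0.61 (SE 0.10, adjusted p = 0.000288). PSAK stood at 809, 922 and 775 CPM, all below WT (log2 -0.38, SE 0.09, adjusted p = 0.00496). PSAO stood at 526, 566 and 509.5 CPM, also all below WT (log2 -0.30, SE 0.08, adjusted p = 0.0116; without LSD1-GR+DEX replicate 3, log2 -0.27, adjusted p = 0.0517). PSAE1, another stromal subunit near the ferredoxin site, and PSAH2 fell by less than PSAK. PSAD1, at 816, 839 and 882 CPM, overlapped WT and was not called (log2 -0.01, SE 0.09, adjusted p = 0.926).

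On photosystem II, both manganese-stabilising copies fell. PSBO1 was at 2555, 2622 and 2661 CPM (log2 -0.43, SE 0.10, adjusted p = 0.00347). PSBO2 was at 904, 932 and 942 CPM (log2 -0.46, SE 0.08, adjusted p = 0.000612). All 3 libraries of each lay below WT. PSBW was at 957, 1046 and 951 CPM, also below WT (log2 -0.34, SE 0.07, adjusted p = 0.00309). PSBX, at 770.3, 855 and 792 CPM, was below WT in every library but did not pass (log2 -0.20, SE 0.08, adjusted p = 0.0785). PSBP1, PSBQ2 and PSBR were lower by log2 -0.25, -0.30 and -0.32.

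Antenna genes were divided in LSD1-GR+DEX. LHCB1.4 was at 134, 113 and 159.6 CPM, below every WT library (log2 -0.82, SE 0.25, adjusted p = 0.0236). The call was lost without WT replicate 3 (log2 -0.60, adjusted p = 0.103), LSD1-GR+DEX replicate 1 (-0.82, adjusted p = 0.0603) or LSD1-GR+DEX replicate 2 (-0.73, adjusted p = 0.0717). LHCB1.5, its neighbour, was at 1883, 1750.3 and 1945 CPM, above every WT library, and was called higher (log2 0.37, SE 0.13, adjusted p = 0.0368). That call was lost without WT replicate 1 (log2 0.23, adjusted p = 0.194) or 2 (0.38, adjusted p = 0.0764), and without LSD1-GR+DEX replicate 1 (0.37, adjusted p = 0.0889), 2 (0.39, adjusted p = 0.0538) or 3 (0.34, adjusted p = 0.105). LHCB4.3 was the other member called higher. It was at 44.3, 70 and 48.1 CPM, above every WT library (log2 0.60, SE 0.17, adjusted p = 0.014), and not called without WT replicate 1 (0.56, adjusted p = 0.0623), WT replicate 2 (0.52, adjusted p = 0.0539) or LSD1-GR+DEX replicate 2 (0.34, adjusted p = 0.0549). LHCB4.1 was at 929.5, 1008 and 961 CPM, below WT (log2 -0.40, SE 0.11, adjusted p = 0.00973).

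LHCB2.1, not called in LSD1-GFP, was at 661, 606 and 653 CPM in LSD1-GR+DEX, below every WT library (log2 -0.45, SE 0.08, adjusted p = 0.000678). LHCB1.3 fell by log2 difference -0.71 (SE 0.13, adjusted p = 0.000739), and LHCB1.1 and LHCB2.2 by -0.45 and -0.38. LHCB6, at 991, 926 and 976 CPM, overlapped WT (log2 -0.10, SE 0.10, adjusted p = 0.5). On photosystem I, LHCA5 was at 115, 105 and 109 CPM, below every WT library (log2 -0.50, SE 0.08, adjusted p = 0.000376), and LHCA2 was lower by log2 -0.43. LHCA4, at 1904, 1893 and 1928 CPM, and LHCA6, at 83.4, 88 and 97.1 CPM, overlapped WT and were not called (log2 -0.04 and 0.19). LHCA1 and LHCA3 were not called either, with log2 0.02 and -0.02.

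Of the carriers, PETE1 was at 92.3, 91.1 and 100.3 CPM in LSD1-GR+DEX, about 0.535 of the WT level and without overlap (log2 -0.90, SE 0.11, adjusted p = 3.46e-05). It had the lowest log2 difference of the 39 members in this comparison. PETC was at 914, 968 and 895 CPM, also below WT (log2 -0.34, SE 0.08, adjusted p = 0.00408). PETE2, at 2182, 2277 and 2256 CPM, was below every WT library but not called (log2 -0.11, SE 0.07, adjusted p = 0.256).

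The 2 transgenic groups were then set against each other. Of 39 members, 37 were lower in LSD1-GR+DEX than in LSD1-GFP and 0 were higher, where 16.2% of all genes were called lower and 16.5% higher; the median log2 difference was -0.77 over the members and 0.02 over all genes. Scaling by total counts shifted the median of all genes by 0.13 and left 35 members lower, and a fold of at least 1.2 left 33. Shares of all genes called under these 2 settings are not given here. DESeq2 also called 0 members higher. The 2 members without a call were LHCB1.5 (log2 -0.15, SE 0.13, adjusted p = 0.415), whose libraries overlapped, and PETE1 (log2 -0.29, SE 0.11, adjusted p = 0.0579). LHCB1.4 differed most (log2 -3.71, SE 0.27, adjusted p = 2.94e-06), followed by LHCB2.3 (log2 -2.69, SE 0.12, adjusted p = 8.65e-09). LHCB1.3 was lower by log2 -1.70, LHCB4.3 by -1.47, PSAN by -1.33 and PSAO by -1.27. At the small end stood PSAD1 (log2 -0.30, adjusted p = 0.0186) and PETE2 (log2 -0.23, adjusted p = 0.0268). PSAD1 was not called without LSD1-GFP replicate 3 (-0.23, adjusted p = 0.0823) or LSD1-GR+DEX replicate 1 (-0.28, adjusted p = 0.0721). PETE2 was not called without LSD1-GFP replicate 2 or 3 or LSD1-GR+DEX replicate 1 or 3 (adjusted p = 0.0617 to 0.0967).

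Within gene families the balance of copies shifted, as shares of CPM per kb show. LHCB2.3 held 21.1% ± 0.58 of LHCB2 in WT, 18.8% ± 0.72 in lsd1-1, 53.9% ± 1.7 in LSD1-GFP and 24.1% ± 1.8 in LSD1-GR+DEX (n = 3 each). LHCB1.4 held 1.99% ± 0.21 of LHCB1 in WT and 7.79% ± 0.57 in LSD1-GFP, against 1.44% ± 0.18 in LSD1-GR+DEX. LHCB1.5 held 15.1% ± 0.79 in WT, 11.4% ± 0.48 in LSD1-GFP and 24.9% ± 0.30 in LSD1-GR+DEX. In lsd1-1 the LHCB1.5 share was 17.8% ± 0.69, above every WT library, and that of LHCB1.4 was 1.498% ± 0.32, overlapping WT. The lower LHCB1.5 share in LSD1-GFP stood beside a higher level of the gene itself, given above. LHCB4.3 held 1.82% ± 0.11 of LHCB4 in WT, 4.87% ± 0.40 in LSD1-GFP and 3.47% ± 0.87 in LSD1-GR+DEX. PETE1 held 10.7% ± 0.87 of plastocyanin in WT, 6.74% ± 0.97 in LSD1-GFP and 6.46% ± 0.32 in LSD1-GR+DEX. The PSBO copies kept nearly the same balance, with PSBO2 at 29.2% ± 0.75 in WT, 30.6% ± 0.60 in LSD1-GFP and 28.7% ± 0.050 in LSD1-GR+DEX.

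**Figure D4:**
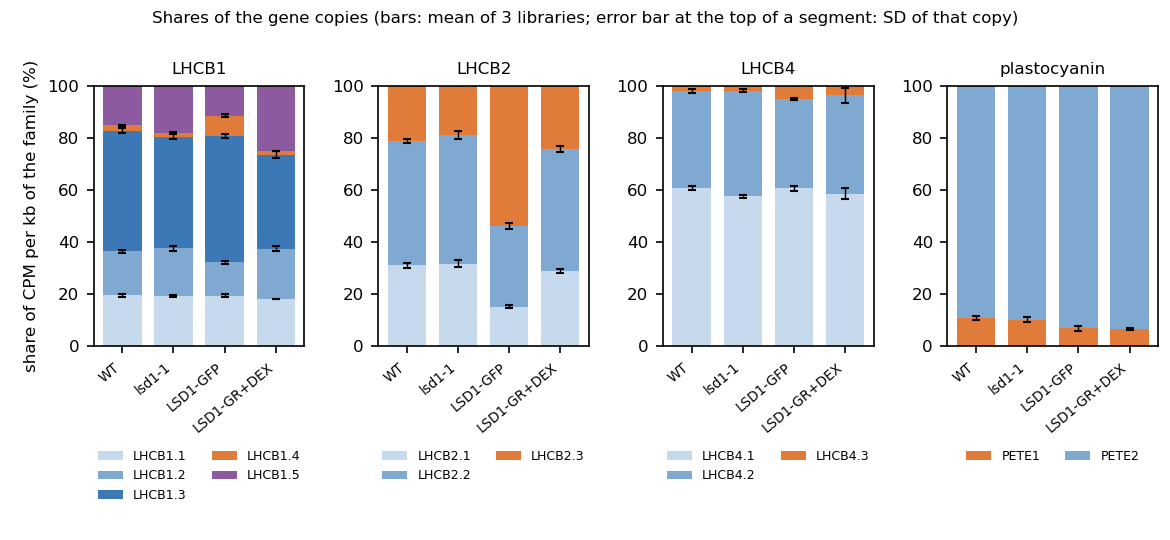
Share of each gene copy in the CPM per kb of its family (vertical axis, percent) by group (horizontal axis), as the mean of 3 libraries with the SD of a copy at the top of its segment. LHCB2.3 grows from 21.1% of LHCB2 in WT to 53.9% in LSD1-GFP, and PETE1 holds less of plastocyanin in both transgenic groups.

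Other genes of the pathway were counted from lists chosen with earlier results known. The shares of all genes called, against which these counts are read, were 15.5% higher and 13.6% lower in LSD1-GFP, 19.3% and 16.7% in LSD1-GR+DEX, and 5.19% and 3.1% in lsd1-1. No such share is given for counts at an unadjusted p. Of 12 further photosystem genes, 8 were higher in LSD1-GFP and 0 lower, 0 were higher and 5 lower in LSD1-GR+DEX, and 0 were called in lsd1-1 (2 at an unadjusted p under 0.05). In LSD1-GFP the lowest adjusted p belonged to CURT1B, which curves thylakoid membranes (log2 0.77, SE 0.08, adjusted p = 1.37e-05), PSB28, a photosystem II assembly factor (log2 0.59), and PSBS, a sensor for the dissipation of excess light (log2 0.56). In LSD1-GR+DEX they belonged to PSBTN, a small photosystem II subunit (log2 -0.41, SE 0.08, adjusted p = 0.000962), and to PSAH1 and PSAE2, the second copies of PSAH and PSAE (log2 -0.36 and -0.28).

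Of 9 electron transport genes, 4 were higher and 0 lower in LSD1-GFP, 1 was higher and 4 were lower in LSD1-GR+DEX, and 1 was higher in lsd1-1. In LSD1-GFP, LFNR1, a leaf ferredoxin-NADP reductase (log2 0.65, SE 0.08, adjusted p = 6.96e-05), and ATPD, a subunit of the chloroplast ATP synthase (log2 0.52, SE 0.07, adjusted p = 0.000141), came before the leaf ferredoxin FD1 (log2 0.62, SE 0.12, adjusted p = 0.00179). Ferredoxins take electrons from photosystem I. In LSD1-GR+DEX the 2 leaf ferredoxin genes parted, FD1 with log2 0.99 (SE 0.12, adjusted p = 4.13e-05) and FD2 with log2 -1.01 (SE 0.14, adjusted p = 0.00011), and PGR5, needed for cyclic electron flow, was lower by log2 -0.34. FD1 was also the gene called in lsd1-1 (log2 0.52, SE 0.12, adjusted p = 0.0168).

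Of 14 genes for antenna import, photosystem assembly and thylakoid protein kinases, 0 were higher and 13 lower in LSD1-GR+DEX. They include CPSRP43, a chaperone that delivers LHC proteins to the membrane (log2 -0.87, SE 0.10, adjusted p = 2.88e-05), and the assembly factors PYG7 of photosystem I (log2 -0.41) and HCF136 of photosystem II (log2 -0.45). In LSD1-GFP 3 were higher and 4 lower. CPSRP54, the partner of CPSRP43 (log2 0.90, SE 0.12, adjusted p = 0.000115), and the insertase ALB3 (log2 0.58, SE 0.08, adjusted p = 9.33e-05) were higher, and the kinase STN8 was lower (log2 -0.87, SE 0.11, adjusted p = 6.06e-05). No gene of this list was called in lsd1-1 (edgeR; 3 at an unadjusted p under 0.05).

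Of 17 regulators, 2 were higher and 6 lower in LSD1-GFP, 1 higher and 8 lower in LSD1-GR+DEX, and 1 higher and 3 lower in lsd1-1. The GATA factor gene CGA1 was at 96.4, 98.5 and 110.1 CPM in WT, 72.6, 49.4 and 67.2 in lsd1-1, 53.9, 41.4 and 46.1 in LSD1-GFP, then 20.8, 16.5 and 22.2 in LSD1-GR+DEX. All 9 other libraries lay below WT (log2 -0.69, adjusted p = 0.00846; log2 -1.11, adjusted p = 9.54e-05; log2 -2.36, adjusted p = 3.66e-07, in that order). GNC, its close relative, was lower in LSD1-GR+DEX (log2 -1.09, SE 0.09, adjusted p = 1.99e-06). Outside the 3 lowest adjusted p, GNC was also lower in LSD1-GFP (log2 -0.41, SE 0.09, adjusted p = 0.00392). In lsd1-1 it was not called (log2 -0.22, adjusted p = 0.166). GLK1 and GLK2 are known as paired activators of photosynthesis genes. GLK1 was higher in lsd1-1 (log2 0.40, SE 0.07, adjusted p = 0.00179) and in LSD1-GR+DEX (log2 0.64, SE 0.07, adjusted p = 7.17e-06). In LSD1-GFP, outside the 3 lowest adjusted p, GLK1 was above every WT library but not called (log2 0.18, SE 0.07, adjusted p = 0.0525). GLK2 was lower in lsd1-1 (log2 -0.36, adjusted p = 0.0203), and, outside the 3 lowest adjusted p and added after its values were seen, in LSD1-GFP (log2 -0.42, adjusted p = 0.00249) and LSD1-GR+DEX (log2 -0.54, adjusted p = 0.000361). Of the plastid sigma factors, SIG6 was lower and SIG5 higher in LSD1-GFP (log2 -0.76 and 0.82).

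Of 14 clock genes, 7 were higher and 3 lower in LSD1-GFP, 4 higher and 6 lower in LSD1-GR+DEX, and 2 higher and 2 lower in lsd1-1. RVE4, a MYB-like clock factor, was at 283, 229 and 285 CPM in WT, 173, 169 and 182 in lsd1-1, 162, 148 and 161 in LSD1-GFP, then 115, 122 and 108 in LSD1-GR+DEX, lower in each group (log2 -0.61, -0.76 and -1.21, with adjusted p = 0.000887, 3.78e-05 and 8.09e-07). GI was at 4.34, 7.27 and 5.29 CPM in WT, 14.3, 28.7 and 15.1 in lsd1-1, 42.6, 55.4 and 45.2 in LSD1-GFP, then 45.5, 68.6 and 46.4 in LSD1-GR+DEX, higher in each group (log2 1.77, 3.08 and 3.24, with adjusted p = 0.00709, 4.46e-05 and 2.11e-05). PRR5 was higher in LSD1-GFP (log2 1.95, adjusted p = 1.66e-05), and LNK1 in lsd1-1 and LSD1-GR+DEX (log2 1.06 and 1.26). In LSD1-GFP, outside the 3 lowest adjusted p, LNK1 was higher too (log2 0.85, SE 0.18, adjusted p = 0.00419). The part of the clock genes in the members' results was not tested.

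Upstream of all members, the 250 bases before the annotated gene start were searched on both strands and set beside 26690 windows of the same length. The G-box (CACGTG) was in 6 of 39 members (15.4%) and in 6.59% of all windows. The I-box (GATAAG) was in 11 (28.2%, all windows 12.2%), and CCAATC was in 13 (33.3%, all windows 10.1%). The core ACGTG, which the G-box contains, was in 14 (35.9%, all windows 23.1%), and the evening element (AAAATATCT) was in 1 member, LHCA5 (2.56%, all windows 2.4%). Some windows also cover part of a neighbouring gene. A match describes letters in the window only.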

How the data were processed

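Messenger RNA of 12 rosette samples was sequenced after stranded library preparation (TruSeq). Per the submitters' processing notes, Trimmomatic 0.30, GSNAP and HTSeq 0.6.1 were used with the TAIR10 genome. Settings are unknown. The authors deposited raw counts, whole numbers for 27416 gene models without normalization, and 0 rows named no gene. Symbols, positions and transcript lengths came from RefSeq TAIR10.1 (26719 loci matched).

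Tests used edgeR 4.0.16 under R 4.3.3 (filterByExpr, TMM factors, robust quasi-likelihood fit of all 12 libraries with 1 mean per group, two-sided, Benjamini-Hochberg over 19487 genes, called at 0.05). The biological coefficient of variation was 11.2%, and SE is the log2 difference over the square root of F. The procedure was run on simulated counts with known changes, drawn independently for each library. That simulation held no deviations shared by same-numbered replicates, so it does not cover the pairing below, and its outcome is not given here. DESeq2 1.42.0, limma 3.58.1 (voom), other scalings and filters, a replicate block, a fold threshold of 1.2, summed near-identical copies and single libraries left out were alternatives. The last-named sum, and total-count scaling with the block, were added after seeing the data.

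Replicate numbers pair lsd1-1 with WT (correlation of deviations from the group means 0.25, 0.17 and 0.39) and LSD1-GFP with WT (0.21, 0.22 and 0.47). The members and lists were chosen with earlier results of these data known. Values in every library are given for the members with the largest and smallest difference within each role in LSD1-GFP and in LSD1-GR+DEX, for members called against the majority, and for those said to be chosen later. Other genes of the pathway were named by lowest adjusted p, at most 3 per list and comparison, apart from those said to lie outside the 3 lowest. The labels speak of 3 biological repeats without saying what separates them.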

Additional observations from a re-analysis of the deposited data

Results flagged for a closer look

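A set of 18 members was higher than WT in LSD1-GFP and lower than WT in LSD1-GR+DEX, and all 18 were also lower in LSD1-GR+DEX than in LSD1-GFP by edgeR's quasi-likelihood test of that difference. Over all 19487 genes tested, 217 (1.11%) were higher in LSD1-GFP and lower in LSD1-GR+DEX, against 46.2% of the members. All 217 were also lower in the direct comparison, which is the difference of the same fitted values. Its direction was therefore fixed by the selection, and it is no separate result for the 18 members. The comparisons share the WT libraries, and the hour of harvest, the transfer and dexamethasone differ or are unknown between the groups. These genes were LHCB1.1, LHCB1.3, LHCB1.4, LHCB2.2, LHCB4.1 and LHCB4.2 of the photosystem II antenna, LHCA2 of the photosystem I antenna, PSAE1, PSAH2, PSAK, PSAN and PSAO, PSBO2, PSBP1, PSBQ2, PSBR and PSBW of the cores, and PETC. LHCB1.5 and LHCB4.3 were higher than WT in both groups, and PETE1 was lower in both.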

How the results depend on the processing

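Shares of all genes called are given for the main fit and the replicate block only. The counts of members in lsd1-1 moved with the setting. Higher calls went from 0 to 2 with the replicate block, alone or with total count scaling, and ranged from 0 to 1 when single libraries were left out. Lower calls went from 0 to 1 with total count scaling, with DESeq2 and with the replicate block, and to 2 with block and total count scaling together. In LSD1-GFP higher calls went from 33 to 23 against a fold of 1.2, and lower calls went from 1 to 2 with block and total count scaling. In LSD1-GR+DEX higher calls went from 2 to 1 when only the 2 groups compared were fitted and when near-identical copies were summed, to 0 against a fold of 1.2, and ranged from 0 to 3 without single libraries; lower calls fell to 7 against that fold and ranged from 17 to 23 without single libraries. Numbers do not pair LSD1-GR+DEX with WT by the rule used (correlations 0.04, 0.22 and 0.31) or with LSD1-GFP (-0.03, 0.12 and 0.33). The replicate block there gave 3 higher and 26 lower members against WT (23.3% and 20.5% of all genes), and 38 lower against LSD1-GFP (20.2%). The log2 antenna to core ratio of LSD1-GFP moved from 0.41 to 0.24 without LHCB1 and LHCB2, and its photosystem I to photosystem II ratio from -0.10 to 0.14 without them and to -0.27 with averaged log2 values. Among 47 called results of members named in full, 839 alternatives gave 780 with direction and call as before, 59 with the call lost and 0 reversed. Except where a setting removes libraries or genes or asks for a larger fold, the cause was not tested. LHCB4.3, the rarest member in WT, stood at 24.9 to 159 CPM, and how far depth limited its results was not tested. In LSD1-GFP against WT its SE was 0.17, below the 0.26 of LHCB1.4.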
